A study of Homo sapiens with 3 samples.

Results

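The renal lineage transcription factors described here are PAX8, PAX2, HNF4A, LHX1, EMX2 and WT1, which are 6 of the 44591 genes in the deposited table. They were taken by gene symbol and not by a limit on their measured values, though earlier results of these data were known. Their RNA was measured in Caki-1, an established human cell line labelled as clear cell renal cell carcinoma, after depletion of RBCK1. RBCK1, also named HOIL-1, is a subunit of the linear ubiquitin chain assembly complex, and the study asked what its depletion does to gene expression in renal cancer cells. The 3 groups were cells given a non-targeting siRNA (si-Control), cells given si-RBCK1 #1 and cells given si-RBCK1 #2, the latter labelled si-HOIL-1#1 and si-HOIL-1#2, and per the study's methods 48 h had passed since transfection. Caki-1 cells carry wild-type p53 per the same methods, and all groups share this background. Each group had 1 library, so the differences below were not checked in replicates, no p-value is given, and the intervals cover counting error only.

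The kidney forms from intermediate mesoderm, in which PAX2, PAX8 and LHX1 act together to specify the renal lineage. EMX2 acts in the ureteric bud and the nephron epithelium, and WT1 acts in the nephron progenitors and later in podocytes, the filtering cells of the glomerulus. HNF4A is a nuclear receptor that drives the mature programme of the proximal tubule, the segment from which clear cell carcinoma is thought to arise, and PAX8 protein is used in pathology as a marker of renal origin.

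The siRNAs are shown because the depletion rests on them. An siRNA acts through its guide strand, and guide positions 2 to 8, the seed, can also pair with other transcripts. The sense strands are printed 5′ to 3′, and the capitals mark bases 12 to 18, which match the site that pairs with the seed.
si-RBCK1 #1: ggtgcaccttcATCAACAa
si-RBCK1 #2: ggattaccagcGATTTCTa
Each full sequence was found in the longest coding transcript of RBCK1 and of no other gene among 19669 genes (GENCODE release 29, GRCh38). The target of si-RBCK1 #1 lies in the coding sequence, in exon 6 of 12 (chr20:419577-419595, plus strand), and that of si-RBCK1 #2 in exon 9 (chr20:427327-427345, plus strand). The seed site of si-RBCK1 #1 was present in 22.3% of the genes' transcripts and that of si-RBCK1 #2 in 25.9%.
Among the 6 lineage factors, the seed site of si-RBCK1 #1 occurred once in PAX2 and once in EMX2, and that of si-RBCK1 #2 in none of them. The 2 sites are shown with the same number of bases around the seed site, which is in capitals.
PAX2: gcgtctcttccATCAACAg
EMX2: gaggctccttcATCAACAa
The PAX2 site is coding, in exon 3 of 11 (chr10:100750873-100750891, plus strand), and the EMX2 site lies in the 3′ UTR, in exon 3 of 3 (chr10:117548448-117548466, plus strand). EMX2 shares a run of 13 bases with the sense strand. PAX8, HNF4A, LHX1 and WT1 hold no seed site of either siRNA in their longest coding transcript. These matches are a description of the letters only.

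RBCK1 itself was at 33.3 RPKM in si-Control, 9.97 RPKM in si-RBCK1 #1 and 12.3 RPKM in si-RBCK1 #2, or 29.9% and 36.8% of the control. RPKM divides the reads of a gene by its length and by the library total, so levels of different genes can be compared. Reads in the totals used for this scaling numbered 36926834, 40442939 and 36344428 in the same order, and 12263 to 12473 genes reached 1 RPKM in a library. The log2 ratio of an siRNA library to si-Control was taken on log2(RPKM + 1), which understates the change of low genes. Both ratios use the same si-Control library, so an error in that library enters both. Over the 12403 genes that averaged 1 RPKM or more, the median log2 ratio was 0.02 for si-RBCK1 #1 and 0.03 for si-RBCK1 #2. In RNA from a whole culture, fewer cells that express a gene and less RNA per cell cannot be told apart.

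PAX8 was the lineage factor that Caki-1 cells expressed strongly, and LHX1 was present at a low level, while PAX2, HNF4A, EMX2 and WT1 were near the limit of detection in all 3 libraries. PAX8 was lower than the control in both depleted libraries, more so with si-RBCK1 #1. LHX1 was higher in both. PAX8 made up 99.7%, 98.2% and 98.9% of the summed RPKM of the 6 factors in si-Control, si-RBCK1 #1 and si-RBCK1 #2. The other 5 factors together had 51, 214 and 147 reads in the same order, of which LHX1 supplied the most in every library.

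**Figure D1:**
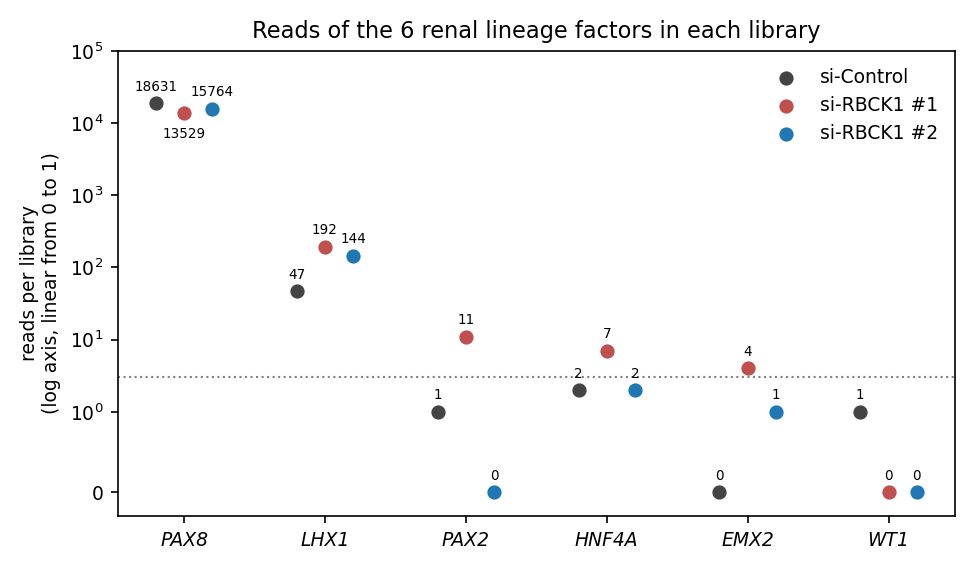
Reads of each lineage factor (vertical axis, log scale that is linear from 0 to 1) in the si-Control, si-RBCK1 #1 and si-RBCK1 #2 libraries, 1 point per library, with the number of reads printed and a dotted line at 3 reads. PAX8 lies between 13529 and 18631 reads, LHX1 between 47 and 192, and the other factors between 0 and 11.

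PAX8 is a paired box factor of the PAX2 subgroup and lies on the minus strand (hg19, chr2:113973574-114036498). Its level was 124 RPKM in si-Control (18631 reads), 82.5 RPKM in si-RBCK1 #1 (13529 reads) and 107 RPKM in si-RBCK1 #2 (15764 reads). Both depleted libraries were thus below the control, and si-RBCK1 #1 was the lowest. The log2 ratio was -0.59 with si-RBCK1 #1 (95% counting interval -0.62 to -0.56), which is 66.3% of the control on the RPKM scale. With si-RBCK1 #2 it was -0.22 (-0.25 to -0.19), or 86.0% of the control. The 2 intervals do not overlap, and PAX8 reads in si-RBCK1 #1 were lower than those in si-RBCK1 #2 by a log2 ratio of -0.37 (-0.41 to -0.34). This last comparison does not use the control library. RBCK1 was also lower in si-RBCK1 #1 than in si-RBCK1 #2, with a log2 ratio of reads of -0.30 (-0.39 to -0.20), and its part in the difference was not tested.

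PAX8 was the only one of the 6 factors with a mean of at least 1 RPKM, and it did not reach a 2-fold difference with either siRNA. Of all 12403 genes past that filter, 6.18% (766 genes) were at least 2-fold different with si-RBCK1 #1, 4.76% (591) with si-RBCK1 #2 and 2.87% (356) in the same direction with both. The shift of PAX8 was moderate on this scale. The ratio of 11.5% of these genes was lower than that of PAX8 with si-RBCK1 #1, and of 28.1% with si-RBCK1 #2. The lower and upper quartiles of these genes were -0.31 and 0.33 with si-RBCK1 #1 and -0.26 and 0.33 with si-RBCK1 #2, so PAX8 lay below the lower quartile with si-RBCK1 #1 and above it with si-RBCK1 #2. PAX8 ranked 413th of 19233 protein-coding genes in si-Control, 745th in si-RBCK1 #1 and 505th in si-RBCK1 #2.

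**Figure D2:**
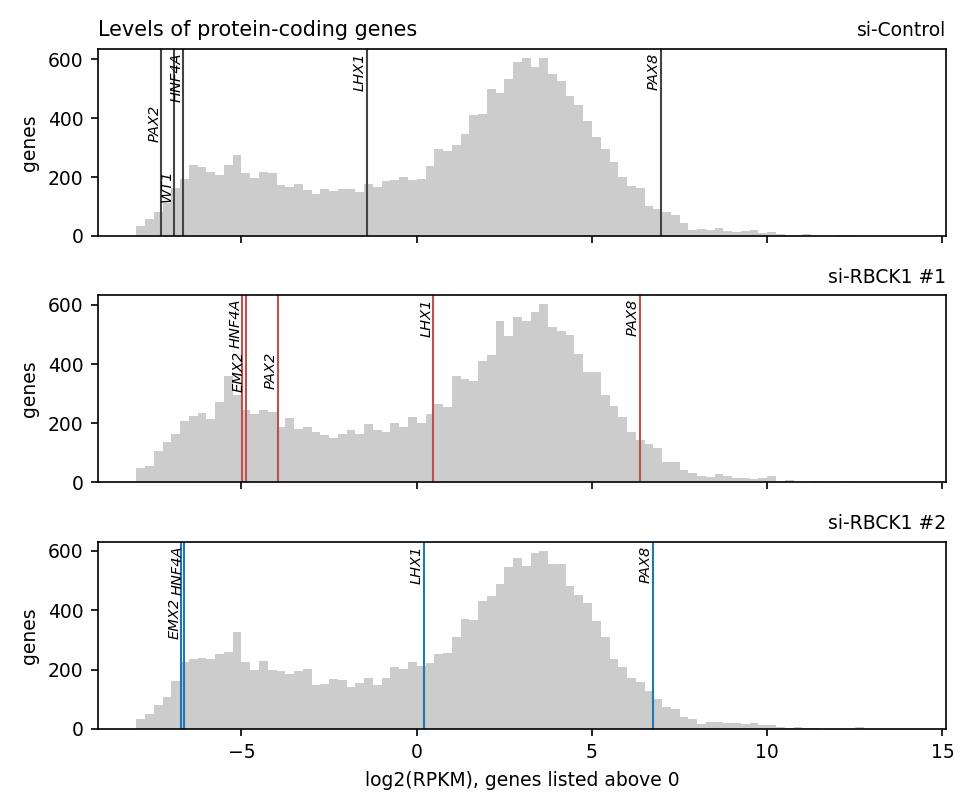
Histograms of the level of protein-coding genes listed above 0 (horizontal axis, log2 of RPKM; vertical axis, number of genes), 1 panel per library, with a line at each lineage factor listed above 0. PAX8 sits at the upper edge of the distribution (82.5 to 124 RPKM), LHX1 in the dip between the upper and lower parts, and the other factors in the lowest part.

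The 3 protein-coding genes whose pair of log2 ratios lay closest to that of PAX8, among 956 genes within 2-fold of its mean level, were LYPLA1, MAT2A and TAF13. LYPLA1, a protein depalmitoylase, had log2 ratios of -0.54 and -0.24. MAT2A, which makes S-adenosylmethionine, had -0.54 and -0.18. TAF13, a subunit of the general factor TFIID, had -0.50 and -0.15. The distance between the ratio pairs was 0.055 for LYPLA1, 0.057 for MAT2A and 0.11 for TAF13 on the log2 scale, over 3 libraries.

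The genes that overlap PAX8 were above or close to the control where PAX8 was below it. PAX8-AS1, a long noncoding RNA on the opposite strand inside the PAX8 locus (hg19, chr2:113993104-114024600), was at 8.01, 8.91 and 11.8 RPKM in si-Control, si-RBCK1 #1 and si-RBCK1 #2. It was higher than the control in both depleted libraries, with log2 ratios of 0.14 and 0.50. A short antisense gene within it, ENSG00000258395.1 (hg19, chr2:113998307-113998987), was at 27.8, 30.3 and 43.5 RPKM, with log2 ratios of 0.12 and 0.63. Another opposite-strand entry, ENSG00000189223.9, spans most of the locus and covers the whole span of PAX8-AS1. It was level at 4.43, 4.34 and 4.26 RPKM (log2 ratios -0.02 and -0.05), and the intervals of both ratios of reads include no difference. It may be a second entry of the same gene as PAX8-AS1, which was not checked. The rise of PAX8-AS1 was thus not seen in this overlapping entry. These genes overlap each other and PAX8, and whether reads were counted by strand is not given in the sources used here. If strand was not used, reads of PAX8 and of its antisense partners cannot be told apart. The nearest protein-coding genes outside the locus were PSD4 at 0.763, 1.32 and 1.14 RPKM and CBWD2 at 7.22, 5.74 and 5.82 RPKM.

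LHX1, a LIM homeodomain factor (hg19, chr17:35294772-35301915, plus strand), was at 0.371 RPKM in si-Control (47 reads), 1.38 RPKM in si-RBCK1 #1 (192 reads) and 1.15 RPKM in si-RBCK1 #2 (144 reads). Both depleted libraries were above the control. On log2(RPKM + 1) the ratio was 0.80 (0.55 to 1.10) with si-RBCK1 #1 and 0.65 (0.41 to 0.95) with si-RBCK1 #2. Without the added 1 RPKM, the reads relative to the library totals were 3.73-fold higher (2.70 to 5.25) with si-RBCK1 #1 and 3.11-fold higher (2.23 to 4.42) with si-RBCK1 #2. The siRNA libraries differed from each other by a log2 ratio of 0.26, with an interval from -0.06 to 0.58 that includes no difference. The mean of LHX1 over the libraries was 0.970 RPKM, just under the filter.

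Gains of at least 2-fold were not rare among genes as low as LHX1. The comparison set was 3435 genes of any type, listed above 0 in every library and within 2-fold of the mean RPKM of LHX1. It was chosen after the value of LHX1 was seen. Without a pseudocount, 12.7% (435) of them were at least 2-fold higher with si-RBCK1 #1 and 12.6% (434) with si-RBCK1 #2. With both siRNAs it was 7.63% (262). The share that gained as much as LHX1, 3.73-fold and 3.11-fold, was not counted. At the LHX1 locus, the antisense gene ENSG00000272191.1, which lies within LHX1, had 1, 10 and 6 reads in the control and the depleted libraries. Its log2 ratio of reads was 3.19 (0.38 to 8.63) with si-RBCK1 #1 and 2.61 with si-RBCK1 #2, where the interval, -0.44 to 8.13, includes no difference. LOC102723471, which starts 812 bases away on the opposite strand, had 71, 99 and 79 reads, and the intervals of both of its ratios include no difference. AATF, a strongly expressed gene 4260 bases beyond LHX1, was at 64.2, 61.4 and 60.7 RPKM.

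**Figure D3:**
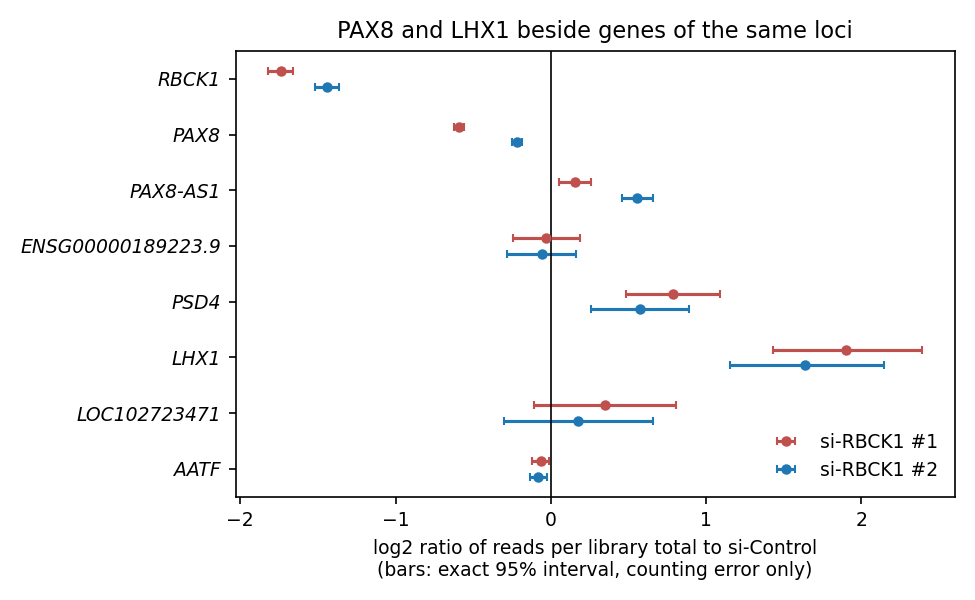
Log2 ratio of reads per library total to si-Control (horizontal axis; bars, exact 95% counting interval) for RBCK1, for PAX8 with PAX8-AS1, ENSG00000189223.9 and PSD4, and for LHX1 with LOC102723471 and AATF, 1 point per siRNA. PAX8 lies left of 0 with both siRNAs and PAX8-AS1 right of it, while the bars of the overlapping entry ENSG00000189223.9 include 0. LHX1 lies furthest to the right of the plotted genes, at 1.90 and 1.64. The low antisense gene ENSG00000272191.1 is not plotted.

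PAX2, the closest relative of PAX8 (hg19, chr10:102495466-102589698, plus strand), had 1 read in si-Control, 11 in si-RBCK1 #1 and 0 in si-RBCK1 #2. These counts correspond to 0.00640, 0.0642 and 0 RPKM. The si-RBCK1 #1 library alone stood above the others. Its reads were 10.04-fold those of the control, with a counting interval from 1.46 to 432, and at least 3.30-fold higher than in si-RBCK1 #2 with the latter set at 3 reads (0.0195 RPKM), before the counting error of the 11 reads. How often other genes this low had such a rise in si-RBCK1 #1 alone was not counted, so the rise cannot be called particular to PAX2. Even in the si-RBCK1 #1 library, the level of PAX2 was far below that of PAX8. PAX2 is among the factors whose transcript holds the seed site of that siRNA, and a link between the site and these reads was not tested.

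HNF4A (hg19, chr20:42984441-43061485, plus strand) had 2, 7 and 2 reads in si-Control, si-RBCK1 #1 and si-RBCK1 #2, or 0.00990, 0.0316 and 0.0101 RPKM. The ratio of si-RBCK1 #1 to the control was 3.20-fold with an interval from 0.608 to 31.5, so no difference was detectable at this depth. The 6 noncoding genes that overlap HNF4A or lie within 5 kb of it, HNF4A-AS1 among them, were listed at 0 in all libraries.

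EMX2 (hg19, chr10:119301956-119309057, plus strand) had 0 reads in si-Control, 4 in si-RBCK1 #1 and 1 in si-RBCK1 #2. No fold is given, since these counts are at or near the floor of 3 reads. EMX2OS, its antisense RNA, was listed at 0 throughout. WT1 (hg19, chr11:32409321-32457081, minus strand) had 1 read in si-Control and 0 in both depleted libraries, and WT1-AS had 0, 1 and 1 reads. A count of 0 allows up to 3 reads, which for WT1 is 0.0224 RPKM in si-RBCK1 #1 and 0.0249 RPKM in si-RBCK1 #2. In si-Control, PAX2, HNF4A, EMX2 and WT1 were all below 3 reads, so their order there cannot be read.

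Related factors also held expressed and near-silent genes. Of the 9 PAX genes, only PAX8 and PAX3 had a mean of at least 1 RPKM. PAX3, a factor of neural crest and muscle, was at 2.88, 1.88 and 2.09 RPKM, lower than the control in both depleted libraries as PAX8 was (log2 ratios -0.43 and -0.33). Of 7 paralogs of the other lineage factors with values in every library, only HNF4G reached 1 RPKM on average. EGR1, a zinc finger relative of WT1, was at 87.5 RPKM in si-RBCK1 #1 and 66.5 RPKM in si-RBCK1 #2, but its control entry is not a number, so it entered no comparison. HNF4G, the close relative of HNF4A, was at 6.53 RPKM in si-Control (1098 reads), 2.22 RPKM in si-RBCK1 #1 (409 reads) and 2.07 RPKM in si-RBCK1 #2 (343 reads). Its log2 ratios were -1.22 and -1.29. HNF4G was thus above HNF4A in every library, and it was lower in both depleted libraries than in the control.

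Together with nephron progenitor, tubule, podocyte and stromal factors, 74 other renal transcription factors were examined, and 31 of them had a mean of at least 1 RPKM. Their median log2 ratio was 0.01 with si-RBCK1 #1 and 0.11 with si-RBCK1 #2, beside 0.02 and 0.03 for all genes. With both siRNAs 16 were higher and 11 lower than the control, and PAX8 was on the lower side. HNF4G and SOX9 were the ones at least 2-fold different with both, against 2.87% of all genes. SOX9, a factor of progenitor and regenerating tubule cells, was at 7.01, 17.0 and 16.4 RPKM (log2 ratios 1.17 and 1.12). FOXD1, a factor of the renal stroma, was the highest of the 31 at 69.0, 130 and 121 RPKM. In si-Control it was below PAX8, and in both depleted libraries it was above PAX8. ZEB2 was lower with both siRNAs (8.72, 5.56 and 3.15 RPKM). BHLHE40 was at 16.8, 33.6 and 21.0 RPKM, NR2F2 at 15.6, 17.8 and 30.8 RPKM, and ELF3 at 21.0, 18.7 and 22.7 RPKM. Among the progenitor factors HOXD11, TWIST1 and HOXA10 were the highest, at 3.43 to 5.96 RPKM, and each was above the control in both depleted libraries, HOXD11 within counting error with si-RBCK1 #1.

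**Figure D4:**
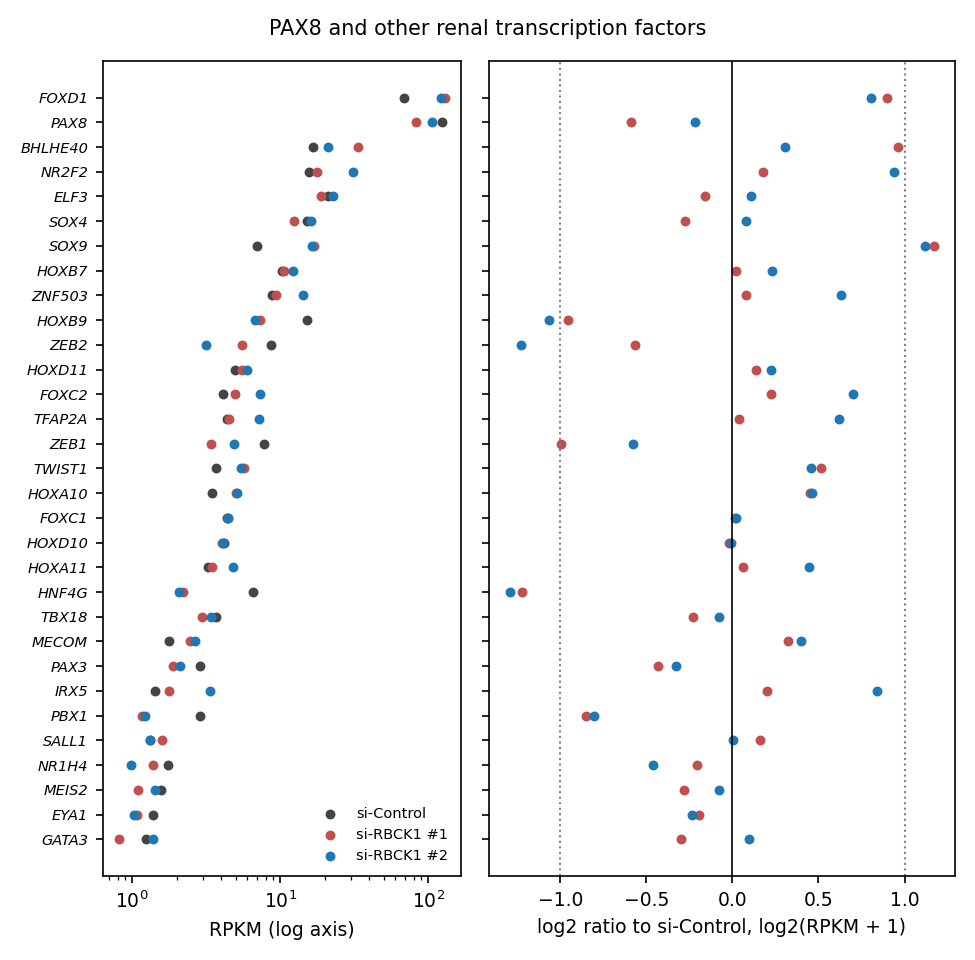
Level in each library (left, RPKM on a log axis) and log2 ratio to si-Control on log2(RPKM + 1) (right, dotted lines at 2-fold) of PAX8 and the other renal transcription factors with a mean of at least 1 RPKM, 1 of which is not shown, ordered by mean level. PAX8 and FOXD1 stand above the rest, HNF4G and SOX9 lie beyond 2-fold with both siRNAs, and PAX8 lies between 0 and the lower 2-fold line.

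Most proteins that work with the lineage factors were expressed. Of 24 partners and cofactors 18 had a mean of at least 1 RPKM, and 0 were 2-fold different on log2(RPKM + 1) with si-RBCK1 #1 or si-RBCK1 #2, beside 6.18% and 4.76% of all genes, a count too small to set the list apart. The added 1 RPKM bears on this, since PAGR1, a partner of PAXIP1 named after its values were seen, was at 4.45, 9.69 and 9.26 RPKM, and its reads per library total were 2.18-fold (1.98 to 2.39) and 2.08-fold (1.89 to 2.29) those of the control. NCOA1, a nuclear receptor coactivator named likewise, was at 43.7% and 55.5% of the control RPKM. The median log2 ratios of the list were -0.08 and 0.12, beside 0.02 and 0.03 for all genes. BASP1, which turns WT1 into a repressor, was at 167, 136 and 141 RPKM, although WT1 itself had at most 1 read. WTAP, named for its binding to WT1, was at 47.2, 35.2 and 29.7 RPKM. TLE1, a corepressor of the Groucho family, which PAX proteins recruit, was at 24.2, 13.9 and 22.0 RPKM, lower mainly with si-RBCK1 #1 as PAX8 was.

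Most listed genes downstream of the lineage factors, or of the segments they specify, had a mean below 1 RPKM. Of all 19233 protein-coding genes, 10775 reached that mean. Whether the low genes follow from the low levels of HNF4A, WT1 and PAX2 was not tested. The lists below hold 3 to 10 genes past the filter, and against the 2.87% of all genes at least 2-fold different with both siRNAs, 0 or 1 such gene does not set a list apart. Of 25 genes known as HNF4A targets 4 passed the filter and 0 were 2-fold different, with ANGPTL4 (17.9, 34.5 and 32.7 RPKM) the highest and SERPINA1 at 7.29, 4.35 and 5.19 RPKM. Of 33 proximal tubule genes 10 passed, led by ANPEP (89.3, 104 and 106 RPKM), CDH2 and DPP4. CDH6, a cadherin of the forming nephron, was the one at least 2-fold higher with both siRNAs (0.866, 3.53 and 2.86 RPKM). Of 25 distal nephron and collecting duct genes 3 passed (FXYD2, CLDN4 and KRT7) and 0 were 2-fold different on log2(RPKM + 1). KRT7, a low gene, was at 2.07, 0.944 and 0.792 RPKM, which without the added 1 RPKM is 45.7% and 38.3% of the control. Of 11 podocyte genes 4 passed, with KIRREL, VEGFA and CD2AP the highest, and VEGFA, which many cell types express, was lower with both siRNAs (log2 ratios -1.28 and -1.09). Of 25 WNT, RET and FGF genes of kidney formation 9 passed, led by CTNNB1, NOTCH2 and ETV5. LFNG, a modifier of Notch receptors, was the one at least 2-fold higher with both siRNAs (6.62, 19.6 and 19.0 RPKM).

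The label of the cell line was set against marker genes beside PAX8. Of 23 genes linked to clear cell carcinoma 20 passed the filter, among them VIM (664, 1512 and 1392 RPKM), TGFBI, CAV1 and KRT8 (65.6, 172 and 238 RPKM). With both siRNAs 12 of the 20 were higher and 8 lower than the control. VIM and KRT8 were at least 2-fold higher with both, beside 2.87% of all genes. CCND1 was too as listed, but its listed values gave no whole reads. Among the lower genes, all named after their values were seen, NDUFA4L2 was at 30.4% and 35.0% of the control RPKM, HIF1A at 45.1% and 61.3% and EPAS1 at 66.2% and 75.5%. CA9, the classical marker of clear cell carcinoma, had 1, 4 and 1 reads, and LRP2 and AQP1, markers of the mature proximal tubule, had at most 10 reads in a library. These last 3 genes were named after their values were seen. Of 10 injured tubule genes with values, 9 passed, led by SPP1, LCN2 and HMGA2. LCN2 was at least 2-fold lower with both siRNAs (143, 23.8 and 52.9 RPKM), while SOX9 and CDH6, already named in other lists above, were at least 2-fold higher, beside 2.87% of all genes. The list as a whole differed between the siRNAs. Its median log2 ratio was -0.49 with si-RBCK1 #1 (4 higher, 5 lower) and 0.31 with si-RBCK1 #2 (6 higher, 3 lower). Of 14 markers of other cell types 3 passed, CD68, ACTA2 and COL1A1, and the summed level of the list was 53.5 RPKM in si-Control and 62.4 and 64.6 RPKM in the depleted libraries. CD3E and INS were listed at 0 in all libraries, and PTPRC, PECAM1, CDH5 and LYZ had at most 6 reads in any library.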

How the data were processed

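RNA from Caki-1 cells, with 3 libraries in all and 1 per condition, was depleted of ribosomal RNA and sequenced in pairs. The authors deposited 1 RPKM value per gene and library. The submitters' processing notes name TopHat2, FastQC, Trimmomatic, HTSeq and hg19; the gene annotation and the use of strand are not given in the sources used here. Groups came from the sample labels. The table's own comparison (a control and a treated value, a fold change, p and q) was not used.

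RPKM values were analysed as deposited, with a pseudocount of 1 RPKM and, for counts of genes, a mean of at least 1 RPKM and a limit of 2-fold. No test was possible with 1 library per condition. Library totals were recovered from RNAs of up to 200 nt, whose values step in whole reads. The smallest whole reads and a length of 50 to 50000 nt that give a gene's 3 values were then searched, which succeeded for all 6 lineage factors. Exact Clopper-Pearson 95% intervals and the floor of 3 reads for a count of 0 cover counting error only, since reads are not independent molecules. EGR1 has 1 entry that is not a number and was left out.

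The lineage factors and all lists were chosen with earlier results of these data known; lists were written from general knowledge. Named genes are the lineage factors, RBCK1, the 3 highest genes of each list, list genes at least 2-fold different in the same direction with both siRNAs, the 3 genes closest to PAX8 and companion noncoding genes. Of these, 2 list genes are not reported here. Genes within 5 kb were added after seeing the data. Alternatives were other pseudocounts, filters, fold limits and scalings, and reads without a pseudocount. Steps were tested on simulated data. Calculations used scipy 1.17.1, pandas 2.3.3 and numpy 2.4.6 under Python 3.11.15, and plots matplotlib 3.10.9.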

Additional observations from a re-analysis of the deposited data

How the results depend on the processing

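No paired analysis was possible because there was a single library for each siRNA, and none could be left out. The log2 ratios of PAX8 stayed below 0 under every alternative run, from -0.64 to -0.56 with si-RBCK1 #1 and from -0.27 to -0.21 with si-RBCK1 #2. Those that moved beyond the counting interval were -0.64 with si-RBCK1 #1 at equal totals, and -0.27 at equal medians and -0.25 at equal totals with si-RBCK1 #2. LHX1 stayed above 0, but its size depends on the pseudocount. With si-RBCK1 #1 it was 1.66 at 0.1 RPKM, 0.25 at 5 RPKM and 1.90 on reads with none, and with si-RBCK1 #2 it was 1.41, 0.20 and 1.64. On reads, PAX2 and HNF4A with si-RBCK1 #1 were 3.33 and 1.68. At a pseudocount of 0.1 RPKM, PAX2 with si-RBCK1 #2 was -0.089, EMX2 was 0.42 and 0.13 with the first and second siRNA, and WT1 was -0.11 with both, while EMX2 with si-RBCK1 #1 was 0.0098 at 5 RPKM.
The number of all genes at least 2-fold different with si-RBCK1 #1, with si-RBCK1 #2 and with both was 1346, 1085 and 673 at a pseudocount of 0.1 RPKM and 219, 198 and 125 at 5 RPKM. It was 2934, 2556 and 1700 at a 1.5-fold limit and 47, 31 and 11 at a 4-fold limit, and 455 and 391 with either siRNA at a mean of at least 5 RPKM. For the other renal transcription factors the number was 5 with si-RBCK1 #1 and 4 with both at 0.1 RPKM, 4 with si-RBCK1 #1 at equal totals, 1 with si-RBCK1 #1 and 1 with both at a mean of at least 5 RPKM, and 7, 11 and 5 at 1.5-fold. It was 0, 0 and 0 at 5 RPKM and at 4-fold. Their median log2 ratio with si-RBCK1 #2 was 0.00034 with no filter and 0.24 at a mean of at least 5 RPKM. The scalings shifted all log2 ratios by at most 0.06.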
